A study of Homo sapiens with 16 samples.

Results

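The genes described here are 8 genes of the LIN28, HMGA and IGF2BP families and TRIM71, which are known for high activity in early progenitors: LIN28A, LIN28B, TRIM71, HMGA1, HMGA2, IGF2BP1, IGF2BP2 and IGF2BP3. Coordinates are on hg38. The genes were taken by name, with earlier results of these data known. They were 8 of 19982 genes in the table, and all 8 were among the 18761 with enough peak coverage to test. Open chromatin was profiled with ATAC-seq, which tags accessible DNA with the Tn5 transposase, in cells sorted from brain organoids enriched for dorsal telencephalon. Their source was the human embryonic stem cell line H9, an established line, and its genotype was labelled WT. Every sample carried both reporters: EGFP joined through P2A to the end of 1 SOX2 allele, and dTomato under the human SYN1 promoter at the AAVS1 locus. Progenitors were the SOX2::EGFP+ cells and neurons the dTomato+ cells, each collected at days 40, 60, 90 and 120, with 2 libraries for each population and day and 16 in all. Late means days 90 and 120, and early means days 40 and 60.

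LIN28A and LIN28B are RNA-binding proteins that block the maturation of the let-7 microRNAs, and let-7 in turn represses LIN28, HMGA2, the IGF2BP genes and TRIM71. In the mouse forebrain, Lin28b, Hmga2 and Igf2bp1 are high in young neural progenitors and decline as let-7 accumulates. HMGA1 and HMGA2 are architectural chromatin proteins that bind AT-rich DNA, the IGF2BP proteins bind and stabilise mRNAs, and TRIM71 is a ubiquitin ligase that also represses mRNAs.

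The let-7 family is the part of this circuit whose sequence sets its targets, so 3 mature members are shown, with the seed (bases 2 to 8) in capitals and the sequences taken from RefSeq, build GRCh38.p14.
let-7a-5p: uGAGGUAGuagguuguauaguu
let-7i-5p: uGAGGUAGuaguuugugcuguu
miR-98-5p: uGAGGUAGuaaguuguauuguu
All 9 mature 5p sequences made by the 12 let-7 family genes held the same seed.

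The RefSeq promoter table, build GRCh38.p14, matched 5 of the 8 genes. LIN28B, IGF2BP2 and HMGA1 each have 2 annotated start sites there, and in all 3 genes a peak overlapped the pair unequally often, which was seen before the pairs of LIN28B and IGF2BP2 were chosen to be shown. The windows run from 250 bases before to 50 bases after the start, 5′ to 3′ on the gene's strand, with every CG dinucleotide in capitals. The letters searched were CG, which reads the same on both strands.
LIN28B, upstream start, chr6:104940715-104941014, plus strand: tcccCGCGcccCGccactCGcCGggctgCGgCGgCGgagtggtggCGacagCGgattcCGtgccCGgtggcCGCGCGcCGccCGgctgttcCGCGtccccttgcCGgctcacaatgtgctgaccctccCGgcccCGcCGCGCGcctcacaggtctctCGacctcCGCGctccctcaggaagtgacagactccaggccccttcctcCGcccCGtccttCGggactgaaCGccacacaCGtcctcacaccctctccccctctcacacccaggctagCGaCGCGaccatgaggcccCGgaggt
LIN28B, downstream start, chr6:104956857-104957156, plus strand: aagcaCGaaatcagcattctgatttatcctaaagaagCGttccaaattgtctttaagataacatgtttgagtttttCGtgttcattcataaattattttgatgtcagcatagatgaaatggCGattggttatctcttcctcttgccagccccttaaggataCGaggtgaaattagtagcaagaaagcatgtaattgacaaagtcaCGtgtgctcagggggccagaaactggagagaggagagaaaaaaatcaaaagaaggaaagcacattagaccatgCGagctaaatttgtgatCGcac
IGF2BP2, upstream start, chr3:185824993-185825292, minus strand: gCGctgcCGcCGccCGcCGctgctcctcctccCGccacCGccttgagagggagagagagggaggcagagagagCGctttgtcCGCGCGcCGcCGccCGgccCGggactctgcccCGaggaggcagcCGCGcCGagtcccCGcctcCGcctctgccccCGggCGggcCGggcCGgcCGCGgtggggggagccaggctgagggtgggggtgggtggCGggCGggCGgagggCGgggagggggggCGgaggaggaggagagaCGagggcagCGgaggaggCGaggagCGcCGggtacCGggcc
IGF2BP2, downstream start, chr3:185821093-185821392, minus strand: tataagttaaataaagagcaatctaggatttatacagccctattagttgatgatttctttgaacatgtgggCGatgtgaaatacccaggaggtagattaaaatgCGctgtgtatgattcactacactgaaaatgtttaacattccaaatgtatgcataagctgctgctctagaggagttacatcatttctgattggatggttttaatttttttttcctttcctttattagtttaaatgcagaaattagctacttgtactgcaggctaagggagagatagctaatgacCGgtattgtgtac
The upstream windows held 37 CG in LIN28B and 38 in IGF2BP2, and the downstream windows held 8 and 3. The median over 35116 promoter windows was 14 CG, and 96.0% held at least 1. A peak overlapped both upstream windows in 16 of 16 libraries and covered the whole window in 15 at LIN28B and 11 at IGF2BP2. A peak overlapped the downstream window of LIN28B in 13 libraries, 12 of them over its whole length, among them 1 of 2 progenitor and 0 of 2 neuron libraries at day 120. At the downstream window of IGF2BP2 a peak overlapped part of the window in 12 libraries, among them 0 of 2 progenitor and 1 of 2 neuron libraries at day 120, and in 0 libraries the whole. HMGA1, whose locus showed no change past the test, had the same kind of pair: 33 CG and a peak in 16 libraries at the upstream window, and 5 CG and a peak in 13 at the downstream one, with 1 of 2 libraries of each population at day 120.

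Each library had its own list of broad peaks, with 68364 to 138554 peaks that covered 36.9 to 104 Mb. The read depth behind the lists is unknown. Progenitor day 120 replicate 2 stood apart with the shortest list, 36.9 Mb, whereas its partner, progenitor day 120 replicate 1, covered 85.2 Mb. Coverage of a gene is given as the bases under peaks in the gene body plus 20 kb on either side, for each 100 kb covered by the library's whole list. This divides by the length of the list and need not remove all its effects. Whether the 2 libraries of each population and day were separate cultures is not in the labels, and p-values measure the spread between these libraries. The sorted populations differed at part of their markers: SOX2 coverage was higher in progenitors than in neurons (log2 difference 1.12 ± 0.13 SE), and coverage of the neuronal transcription factor gene MYT1L was lower (-0.56 ± 0.08 SE). Of 9 progenitor markers 5 were called higher in progenitors, as were 9.88% of all genes. Of 10 neuron markers 4 were called lower, as were 11.1% of all genes. The rest did not pass, with SYN1 at 0.07, DCX at -0.12, FABP7 at 0.05 and GLI3 at 0.10. Fewer cells with an open region and less opening per cell cannot be told apart in such bulk samples.

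The share of the window under peaks gave the order of the loci per length. HMGA2 had the highest median share in progenitors, 9.78% over 8 libraries, followed by HMGA1 with 8.58%, IGF2BP2 with 8.01%, IGF2BP1 with 7.57% and IGF2BP3 with 7.31%. LIN28A had 4.92%, TRIM71 4.25% and LIN28B 3.98%. In neurons the median shares were highest for HMGA1, 8.68%, and HMGA2, 7.72%, and lowest for LIN28A, 2.93%, and TRIM71, 2.89%. The ranges over libraries of neighbouring loci in this order overlapped, from 2.32% to 13.5% for HMGA2 and from 0.855% to 5.23% for LIN28B in progenitors. The HMGA1 share is mostly a share of flank, since the gene has 9.36 kb and its window 49.4 kb.

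Peak coverage of the LIN28B, HMGA2, IGF2BP2 and IGF2BP3 loci was lower in late than in early progenitors, and coverage of IGF2BP2 and HMGA2 was lower in late than in early neurons. In progenitors 4 of the 8 genes passed the test, all lower, where 1.46% of all genes tested were called lower. In neurons 2 of the 8 passed, both lower, where 2.37% of all genes were called lower. Since the genes were chosen with earlier results of these data known, these counts are no test of the set. The median late minus early log2 difference of the 8 genes was -0.49 in progenitors, against -0.05 over all genes, and -0.33 in neurons, against 0.06 over all genes. With both populations averaged, 4 genes were lower, IGF2BP2, LIN28B, HMGA2 and TRIM71, where 4.16% of all genes were. HMGA1, whose window was mostly flank, lay in the middle of all genes, at percentile 47.9 in progenitors and 53.0 in neurons.

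**Figure D1:**
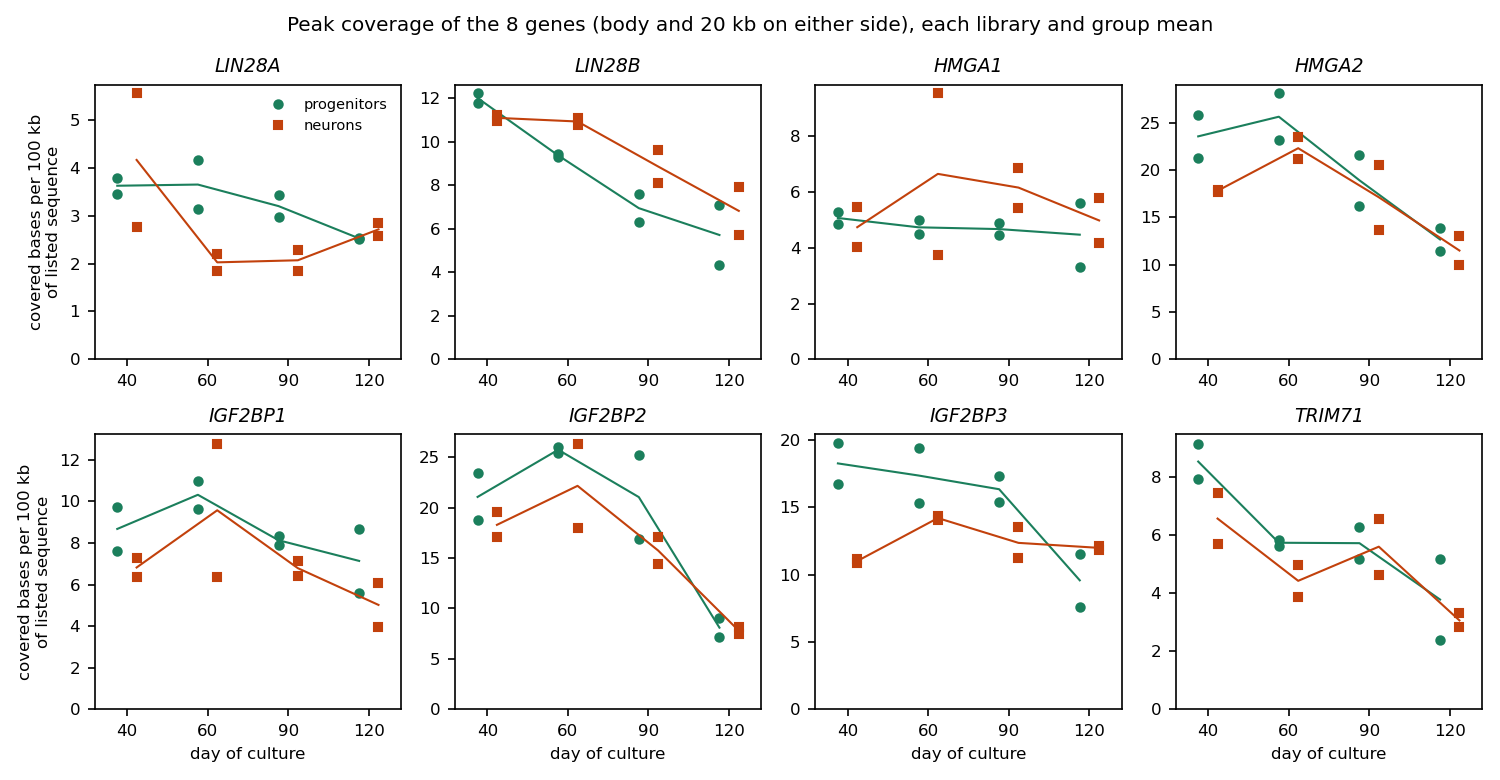
Coverage of each of the 8 loci, in bases under peaks for each 100 kb covered by the library's list, against day of culture; points are libraries (green circles progenitors, orange squares neurons) and lines join the means of the 2 libraries. IGF2BP2 lies between 7.11 and 9.06 in all 4 libraries of day 120 and between 14.4 and 26.3 in all others. How many of all genes had such a gap was not counted.

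LIN28B (chr6:104937026-105083332), which blocks let-7 maturation, had 6.30 and 7.59 covered bases per 100 kb of list in progenitors (day 90) and 7.10 and 4.32 (day 120), against 12.2 and 11.8 (day 40) and 9.30 and 9.43 (day 60). All 4 late progenitor values lay below all 4 early ones, as did the scaled coverage of 4.91% of all genes. The late minus early log2 difference was -0.68 ± 0.14 SE (adjusted p = 0.0104, limma), larger than the spread between libraries. Its values at days 90 and 120 overlapped. Without progenitor day 40 replicate 1 (-0.67, adjusted p = 0.0570) or day 90 replicate 1 (-0.62, adjusted p = 0.0753) the gene missed the threshold. In neurons LIN28B had 8.09 and 9.62 (day 90) and 5.71 and 7.93 (day 120), against 10.96 and 11.2 (day 40) and 10.7 and 11.1 (day 60). These groups did not overlap either, which held for 2.97% of all genes, but the difference of -0.46 ± 0.14 SE missed the threshold (adjusted p = 0.0567). The exact permutation test on scaled coverage gave p = 0.0286 in each population, the smallest that 4 against 4 libraries allow, and on unscaled covered bases 0.0571 in progenitors and 0.0857 in neurons.

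LIN28A (chr1:26410817-26429728), its paralog, had little coverage and showed no change past the test. Its values ran from 2.52 to 3.43 in late progenitors and from 3.13 to 4.17 in early progenitors, with a log2 difference of -0.24 ± 0.21 SE (adjusted p = 0.656). In neurons they ran from 1.85 to 2.85 in late and from 1.85 to 5.55 in early libraries. The 1 region that every library held in its window lay at the start of the neighbouring gene DHDDS, 26431640 to 26432809, and not in LIN28A.

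TRIM71 (chr3:32817997-32897824), a let-7 target and repressor of mRNAs, had 6.27 and 5.16 in progenitors (day 90) and 5.16 and 2.38 (day 120), against 9.12 and 7.92 (day 40) and 5.83 and 5.63 (day 60). Both day 40 libraries stood above the other 6, and how many of all genes did so was not counted. The day 60 minus day 40 log2 difference in progenitors did not pass (-0.53 ± 0.25 SE, adjusted p = 0.514, limma). The late minus early difference was -0.51 ± 0.18 SE in progenitors (adjusted p = 0.116) and -0.29 ± 0.18 SE in neurons (adjusted p = 0.402). It passed as the average of both populations, -0.40 ± 0.12 SE (adjusted p = 0.0443). That call was kept without the first progenitor library of day 120, the first neuron library of day 40 or of day 60, or the second neuron library of day 90, and lost without any of the other 12 (adjusted p 0.0639 to 0.131).

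HMGA2 (chr12:65824460-65966291), which let-7 represses, fell in both populations. In progenitors it had 16.2 and 21.6 (day 90) and 13.9 and 11.4 (day 120), against 25.8 and 21.3 (day 40) and 28.1 and 23.1 (day 60), a log2 difference of -0.63 ± 0.14 SE (adjusted p = 0.0132). Both day 120 libraries were the lowest, and 1 day 90 library reached into the early range. In how many of all genes day 120 was lowest was not counted. The call was lost without replicate 1 of progenitor day 40 (adjusted p = 0.0980), day 60 (adjusted p = 0.0652) or day 90 (adjusted p = 0.106). In neurons it had 13.7 and 20.5 (day 90) and 9.96 and 13.0 (day 120), against 17.9 and 17.7 (day 40) and 23.5 and 21.1 (day 60), a difference of -0.49 ± 0.14 SE (adjusted p = 0.0354). The neuronal groups overlapped in the same way, through day 90 replicate 2. This call was lost without any 1 of 6 neuron libraries, both of day 40, both of day 60, day 90 replicate 1 and day 120 replicate 1, with adjusted p 0.0561 to 0.233.

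HMGA1 (chr6:34236873-34246231), the other family member, differed little. It had 3.32 to 5.63 in late and 4.49 to 5.30 in early progenitors, a difference of -0.06 ± 0.21 SE (adjusted p = 0.950). In neurons it had 4.18 to 6.88 in late and 3.76 to 9.55 in early libraries, a difference of 0.08 ± 0.21 SE (adjusted p = 0.896). The signs of both values turned under other settings. Of the 4 regions in the HMGA1 window 1 lay in the gene, and 3 were held by all 16 libraries. The gene body held 0.182 to 2.26 kb under peaks. These values therefore describe flanking sequence too, where the gene SMIM29 lies.

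IGF2BP2 (chr3:185643130-185825042), an RNA-binding protein that stabilises its target mRNAs, showed the lowest late minus early differences of the 8 genes. In progenitors it had 16.9 and 25.2 (day 90) and 9.06 and 7.11 (day 120), against 23.4 and 18.7 (day 40) and 26.0 and 25.5 (day 60). The difference was -0.79 ± 0.14 SE (adjusted p = 0.00316), in the lowest 1.70% of all genes. The number of peaks in the window was 25 and 29 in progenitors (day 90) and 10 and 6 (day 120), against 24 and 23 (day 40) and 33 and 38 (day 60). In neurons it had 14.4 and 17.1 (day 90) and 8.14 and 7.43 (day 120), against 19.5 and 17.1 (day 40) and 26.3 and 18.0 (day 60), a difference of -0.79 ± 0.14 SE (adjusted p = 0.00144). In both populations the 2 day 120 libraries were below every other library, while day 90 overlapped the early days. How many of all genes had such a gap was not counted. With lists of equal length the day 120 minus day 90 log2 difference was 0.55 in progenitors and -0.72 in neurons.

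IGF2BP3 (chr7:23310209-23470491) passed in progenitors and not in neurons. In progenitors it had 15.4 and 17.3 (day 90) and 11.5 and 7.61 (day 120), against 19.8 and 16.7 (day 40) and 19.4 and 15.3 (day 60), a difference of -0.47 ± 0.13 SE (adjusted p = 0.0484). The call was kept without progenitor day 120 replicate 1 or any 1 neuron library of days 40 and 60, and lost without any 1 of the other 11 libraries (adjusted p 0.0542 to 0.235). In neurons its values ran from 11.2 to 13.5 in late and from 10.9 to 14.3 in early libraries, a difference of -0.03 ± 0.13 SE (adjusted p = 0.948). The test of the difference between the populations gave an adjusted p of 0.300, so the populations were not shown to differ.

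IGF2BP1 (chr17:48996558-49056145), whose mouse counterpart is a fetal neural stem cell factor, had 5.58 to 8.69 in late and 7.60 to 10.99 in early progenitors, a difference of -0.28 ± 0.19 SE (adjusted p = 0.518). In neurons it had 3.96 to 7.14 in late and 6.35 to 12.8 in early libraries, a difference of -0.37 ± 0.19 SE (adjusted p = 0.300). Both pairs of groups overlapped.

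**Figure D2:**
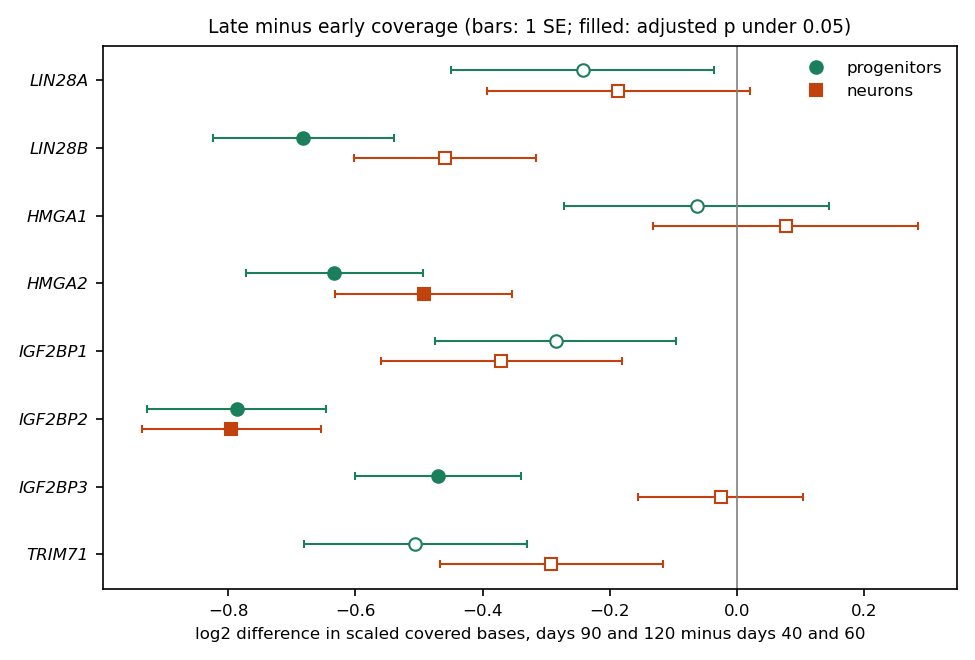
Late minus early log2 difference in scaled covered bases for each of the 8 genes, progenitors (green circles) above neurons (orange squares); bars are 1 SE and filled points passed at an adjusted p under 0.05. IGF2BP2 sits at -0.79 in both populations and HMGA1 at -0.06 in progenitors and 0.08 in neurons.

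None of the 8 genes differed between progenitors and neurons in its late minus early change (adjusted p 0.300 to 0.992), where 0.629% of all genes did. These calls depended on how the lists were scaled. Without scaling to the list's length 0 genes passed in progenitors and 0 in neurons, whereas the 4 genes called in progenitors kept a negative difference. The median over all genes then moved to -0.16 in progenitors and -0.20 in neurons. With the strongest peaks of every list kept up to the length of the shortest list, IGF2BP2 passed in progenitors (-1.01, adjusted p = 0.0137) and 0 genes passed in neurons. LIN28B came to -0.24, HMGA2 to -0.10 and IGF2BP3 to -0.61 in progenitors with these lists. Without progenitor day 120 replicate 2, IGF2BP2 (-0.74, adjusted p = 0.0170), LIN28B (-0.57, adjusted p = 0.0243) and HMGA2 (-0.59, adjusted p = 0.0427) stayed past the threshold in progenitors, and IGF2BP3 did not (-0.36, adjusted p = 0.0921).

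The days were then compared in neighbouring steps, a choice made after the values by day had been seen. Between day 120 and day 90 in progenitors 1 of the 8 genes passed, IGF2BP2, with a log2 difference of -1.23 ± 0.20 SE (adjusted p = 0.00239), where 0.469% of all genes were called lower. IGF2BP3 came to -0.69 ± 0.18 SE (adjusted p = 0.0766) and HMGA2 to -0.50 ± 0.20 SE (adjusted p = 0.207) in this step. In neurons IGF2BP2 came to -0.92 ± 0.20 SE (adjusted p = 0.127), in a step where 0.00533% of all genes passed as lower. No member passed between days 40 and 60 or between days 60 and 90, steps in which 0.336% and 0% of all genes passed in progenitors and 6.14% and 0.0533% in neurons. Without progenitor day 120 replicate 2 the IGF2BP2 step in progenitors was -1.13 (adjusted p = 0.0653), and with lists of equal length it turned to 0.55 (adjusted p = 0.281).

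Day 120 was also set against the mean of the 3 earlier days, again a choice made after the values by day had been seen. Day 120 progenitors were lower at 4 of the 8 genes, where 3.31% of all genes were: IGF2BP2 (-1.34 ± 0.16 SE, adjusted p = 2.63e-05), IGF2BP3 (-0.77 ± 0.15 SE, adjusted p = 0.00361), HMGA2 (-0.75 ± 0.16 SE, adjusted p = 0.00710) and LIN28B (-0.57 ± 0.16 SE, adjusted p = 0.0430). Day 120 neurons were lower at 2, where 1.33% of all genes were: IGF2BP2 (-1.14 ± 0.16 SE, adjusted p = 0.000459) and HMGA2 (-0.67 ± 0.16 SE, adjusted p = 0.0237). Without progenitor day 120 replicate 2, IGF2BP2 remained past the threshold in progenitors (-1.25, adjusted p = 0.00792), whereas HMGA2 (-0.66, adjusted p = 0.113), IGF2BP3 (-0.55, adjusted p = 0.0933) and LIN28B (-0.35, adjusted p = 0.352) did not. With lists of equal length 0 of these calls were kept: IGF2BP2 came to -0.31 in progenitors (adjusted p = 0.394) and -0.78 in neurons (adjusted p = 0.101). HMGA2 in neurons was also lost without day 120 replicate 1 (-0.48, adjusted p = 0.419) or replicate 2 (-0.85, adjusted p = 0.0840) and without scaling (-1.13, adjusted p = 0.0879).

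To locate the change within the loci, peaks of all libraries were merged into 321056 regions, of which 214 lay in the 8 windows. Peaks were present in all 16 libraries at 19 of these 214 regions, as at 7.72% of all regions, and 65 regions were held by 1 library. Merged regions with a peak in all 16 libraries lay over the annotated starts of LIN28B, HMGA1, IGF2BP2, IGF2BP3 and TRIM71 and over the gene ends with the lower coordinate of HMGA2 and IGF2BP1. A library's peak need not reach the start itself: the start window was overlapped in 15 libraries at IGF2BP3 and in 14 at TRIM71, there in 1 of 2 libraries of each population at day 120. Merged regions over the starts of the antisense genes HMGA2-AS1 and HMGA2-AS2, inside HMGA2, also had a peak in all 16. At LIN28A a region just inside the gene, chr1:26410915-26412030, was held by 2 progenitor and 6 neuron libraries.

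In progenitors 2 regions had a peak in every early library and in 0 of 4 late ones, a pattern that 0.737% of all progenitor regions had. The LIN28B region, chr6:104953000-104954074, lay inside the gene and held 992 and 1021 covered bases (day 40) and 438 and 228 (day 60), with none in the late progenitors. In neurons the same region was covered in both day 40 libraries and in 1 library of day 120. The IGF2BP2 region, chr3:185758807-185759694, held 610 and 354 covered bases (day 40) and 233 and 482 (day 60), with none later, and in neurons 1 day 40 library covered it.

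In progenitors 0 regions had the reverse pattern, which 0.795% of all progenitor regions had. In neurons 0 regions had a peak in every early and no late library, as 0.361% of all neuron regions did, and 1 region had the reverse pattern, as did 1.67% of all neuron regions: chr7:23347731-23348430 in IGF2BP3, held by 4 of 4 late and 0 of 4 early libraries, with 392 to 661 covered bases in the late ones. Progenitors held it from day 60 on, apart from day 120 replicate 2. Fisher's exact test of all late against all early libraries called 0 of the 182575 regions tested, and 4.26% of them had an unadjusted p under 0.05; in the windows 7 of 127 did. With population as a stratum the exact test also called 0, with 11721 regions at an unadjusted p under 0.05.

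With the split moved to after day 90, a choice made after the peaks had been seen, 15 regions in the windows were held by all 6 progenitor libraries of days 40 to 90 and by neither day 120 library, 9.74% of the 154 regions that progenitors held there, a pattern of 2.88% of all progenitor regions. Of these regions 8 lay in the IGF2BP2 window, 3 in that of HMGA2, 2 in IGF2BP3, 1 in LIN28A and 1 in TRIM71, and 0 regions had the reverse pattern, which 0.68% of all progenitor regions had. In neurons 6 regions were lost in this way, 3.73% of 161, against 1.01% of all neuron regions: 3 in IGF2BP2, 2 in HMGA2 and 1 in LIN28B. There 1 region had the reverse pattern, chr12:65898265-65898677 in HMGA2, as had 1.19% of all neuron regions.

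With the split moved to after day 40 instead, also after the peaks had been seen, 9 neuron regions of the windows were held by both day 40 libraries and by 0 later ones, 5.59% of 161, against 9.54% of all neuron regions. Of these 3 lay in TRIM71, 2 in LIN28B, 2 in IGF2BP2, 1 in HMGA2 and 1 in IGF2BP1, and 1 region of IGF2BP1 had the reverse pattern, against 0.857% of all. In progenitors 2 regions were lost after day 40, 1 in LIN28B and 1 in HMGA2, or 1.3% of 154, against 2.92% of all progenitor regions, and 0 had the reverse pattern, against 1.73% of all.

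**Figure D3:**
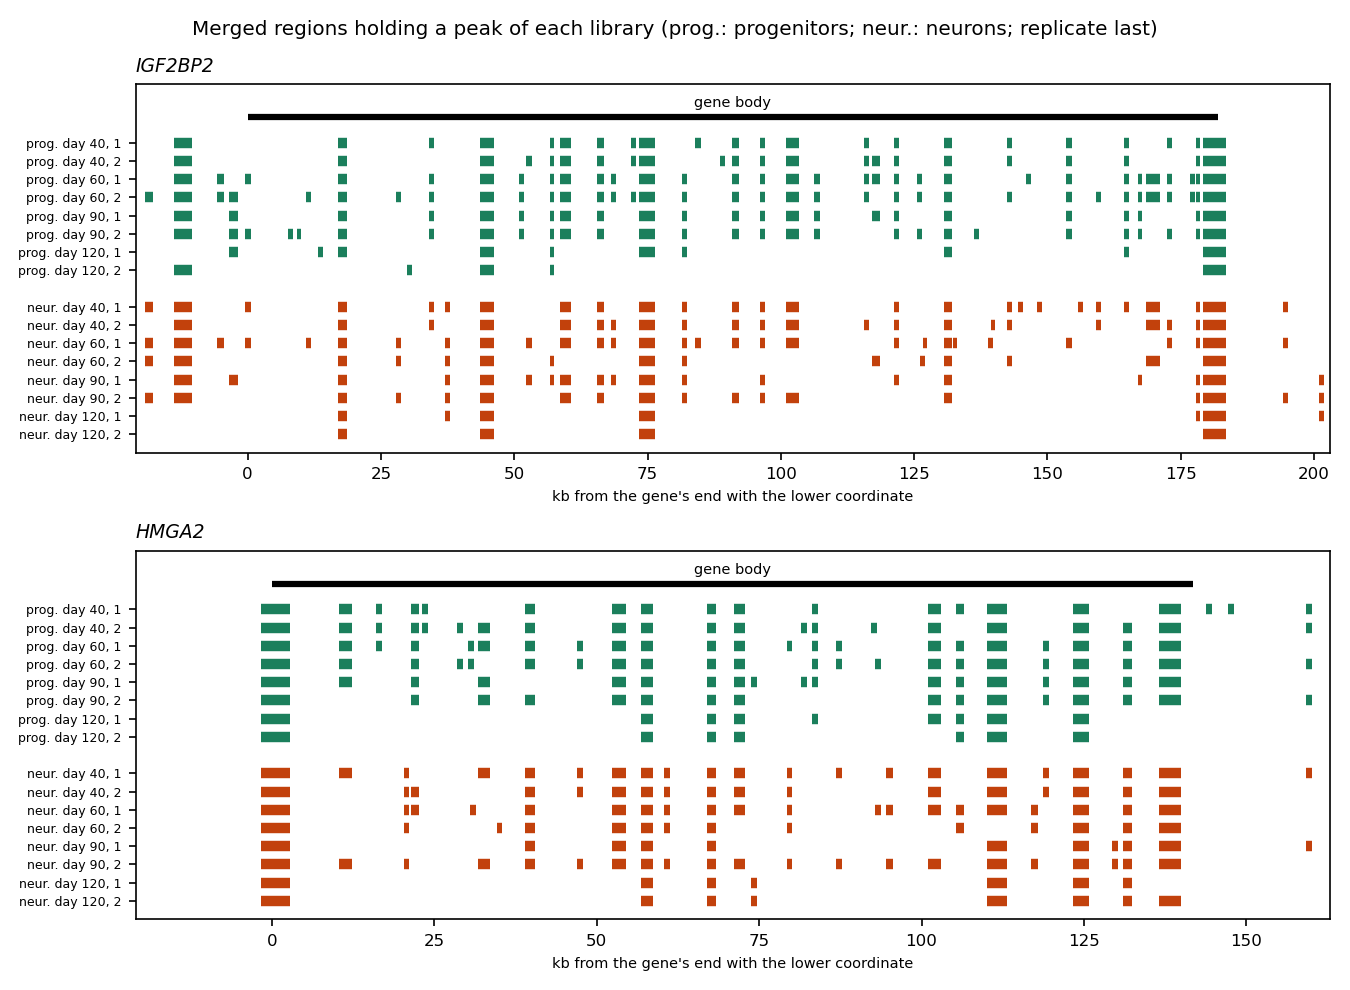
Merged regions in which each library had a peak, across IGF2BP2 and HMGA2, in kb from the gene's end with the lower coordinate; each row is a library, progenitors (green) above neurons (orange), days 40 to 120 from top to bottom, and regions under 0.9 kb are drawn 0.9 kb wide. In IGF2BP2, 8 regions present in all 6 progenitor libraries of days 40 to 90 are missing from both day 120 rows, while the region at the gene's start, at the right, is in every row.

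At IGF2BP2 the lost regions were spread over the gene body. The region chr3:185796518-185797810, about 154 kb from the lower end, held 267 to 1138 covered bases in the progenitor libraries of days 40 to 90 and none at day 120, and 1 neuron library covered it, with 284 bases. The region chr3:185744026-185746477 held 725 to 1358 covered bases in the same 6 progenitor libraries, and in neurons it was covered in 4 libraries of days 40 to 90 and in neither of day 120. The downstream window shown above overlapped another of them, chr3:185820927-185821382, with 293 to 382 covered bases in those 6 progenitor libraries and none at day 120. In the region of the upstream start, chr3:185822259-185826633, every library kept a peak.

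HMGA2 lost 3 regions in progenitors after day 90. The region chr12:65961058-65964397, near the end of the gene with the higher coordinate, held 763 to 2217 covered bases in progenitors at days 40 to 90 and none at day 120, and in neurons 1 of the 2 day 120 libraries kept it, with 356 bases. The region chr12:65876789-65879010 was absent from all 4 day 120 libraries of both populations and present in all 12 others. At LIN28B the region of the downstream start, chr6:104956523-104959531, was absent from both day 120 neuron libraries, which came after 1007 to 2762 covered bases in the 6 earlier ones. In progenitors it kept 1688 bases in day 120 replicate 1 and none in replicate 2.

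At LIN28A the lost region, chr1:26429529-26430608, overlapped the gene's end with the higher coordinate. It held 822 to 1080 covered bases in every progenitor library of days 40 to 90, none at day 120 and none in any neuron library; the test between populations gave an adjusted p of 0.0800. At TRIM71 the region chr3:32821271-32822166, close to the start, held 287 to 743 covered bases in progenitors up to day 90 and none at day 120, and in neurons 3 early and 0 late libraries covered it.

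**Figure D4:**
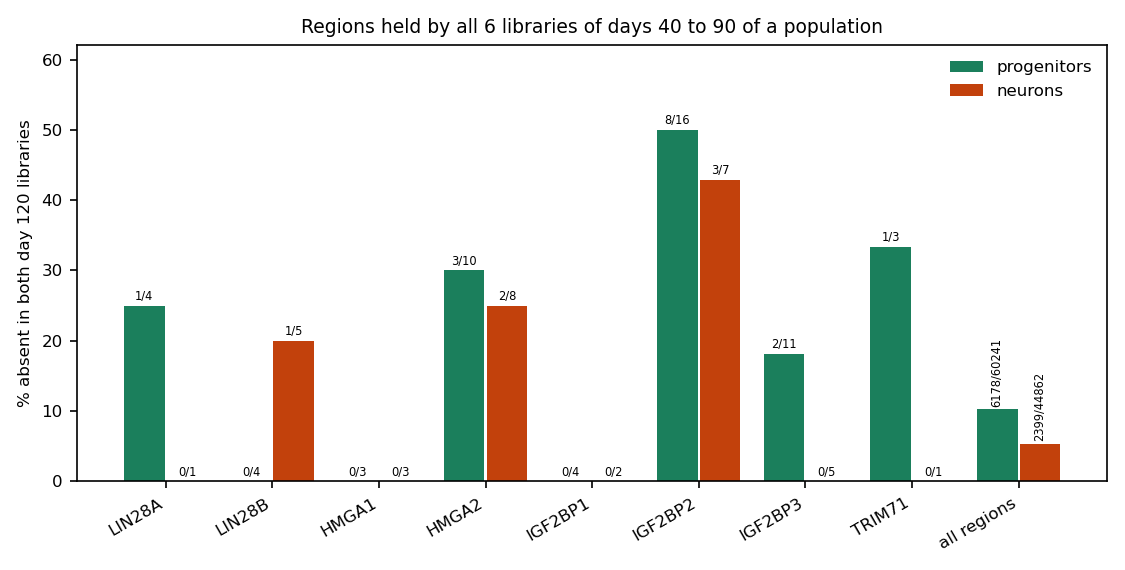
Percentage of the regions held by all 6 libraries of days 40 to 90 that were absent from both day 120 libraries, for each locus and for all regions, progenitors (green) left of neurons (orange); the numbers above the bars give absent and all such regions. IGF2BP2 stands at 8 of 16 in progenitors and 3 of 7 in neurons, and all regions at 10.3% and 5.35%.

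The losses were set beside the length of the day 120 lists. Of the 16 IGF2BP2 regions held by all earlier progenitor libraries, 9 were absent from day 120 replicate 1 and 12 from the short replicate 2. The list of replicate 1 covered 85.2 Mb. The earlier progenitor lists covered 77.8 and 82.8 Mb (day 40), 87.2 and 77.6 Mb (day 60), and 103 and 98.8 Mb (day 90). Over all regions 11.2% were absent from replicate 1 and 32.9% from replicate 2. With all lists brought to the shortest length, 0 regions of the windows were lost after day 90 in progenitors and 1 in neurons, and the shares over all regions were 0.428% and 0.243%. With only peaks whose deposited -log10 q was at least 2, 11 were lost in progenitors, 5 of them in IGF2BP2, and 3 in neurons, with 0 in IGF2BP2, and the shares over all regions were 3.50% and 1.001%. Under a rule of at least 50% of a region's length under peaks, 10 were lost in progenitors, 1 of them in IGF2BP2, and 1 in neurons, with 2.08% and 0.752% over all regions.

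Between the populations, coverage of 1 of the 8 loci passed as higher in progenitors than in neurons, IGF2BP3, where 9.88% of all genes were called higher, and 0 as lower, where 11.1% were. IGF2BP3 had a median of 16.1 (7.61 to 19.8) covered bases per 100 kb of list in progenitors and of 11.99 (10.9 to 14.3) in neurons, and its log2 difference was 0.26 ± 0.09 SE (adjusted p = 0.0435). Comparisons by single day were added to those planned. At day 40 alone the IGF2BP3 difference was 0.71 ± 0.18 SE (adjusted p = 0.0196), with 19.8 and 16.7 in progenitors and 10.9 and 11.1 in neurons. On that day 820 of the 18761 genes tested were called higher in progenitors. The IGF2BP3 difference was 0.26 at day 60 (adjusted p = 0.465) and 0.38 at day 90 (adjusted p = 0.312). At day 120 both progenitor values, 11.5 and 7.61, lay below both neuron values, 12.1 and 11.8, and the difference was -0.30 ± 0.18 SE (adjusted p = 0.392). The other 7 loci ranged from -0.17 for HMGA1 to 0.29 for IGF2BP1 without passing. The IGF2BP3 call was kept without progenitor day 40, day 60 or day 120 replicate 2 or neuron day 90 replicate 1, and lost without any 1 of the other 12 libraries (adjusted p 0.0531 to 0.132).

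Fisher's exact test over 8 progenitor and 8 neuron libraries called 3 of the 127 regions tested in the windows (2.36%) as held more often by progenitors, where 3.06% of all regions tested were, and 2 (1.57%) as held more often by neurons, where 1.27% were. These shares were close to those over all regions. The region chr17:49063433-49064832, in the flank of IGF2BP1, was held by 8 of 8 progenitor and 0 of 8 neuron libraries (adjusted p = 0.0118), with 402 to 1132 covered bases in progenitors. In IGF2BP3 the regions chr7:23343580-23345828 and chr7:23353254-23353816 were each held by 7 of 8 progenitor and 0 of 8 neuron libraries (adjusted p = 0.0323), the short day 120 list being the exception. Another region of that gene, chr7:23389303-23389816, was held by 0 of 8 progenitor and 7 of 8 neuron libraries (adjusted p = 0.0323).

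In LIN28B the region chr6:105057035-105058323, inside the gene, was held by 0 of 8 progenitor and 8 of 8 neuron libraries (adjusted p = 0.0118). Its covered bases in neurons were 1168 and 1289 (day 40), 461 and 547 (day 60), 517 and 552 (day 90), and 190 and 244 (day 120). The day 40 neurons held the most and the day 120 neurons the least. These bases are not scaled, and the neuron lists covered 104 and 97.9 Mb (day 40) and 63.0 and 55.7 Mb (day 120). How many of all regions ran in this order was not counted. Under a rule of at least 50% of a region's length under peaks, 0 of these regions were called, and with lists of equal length 1 was.

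**Figure D5:**
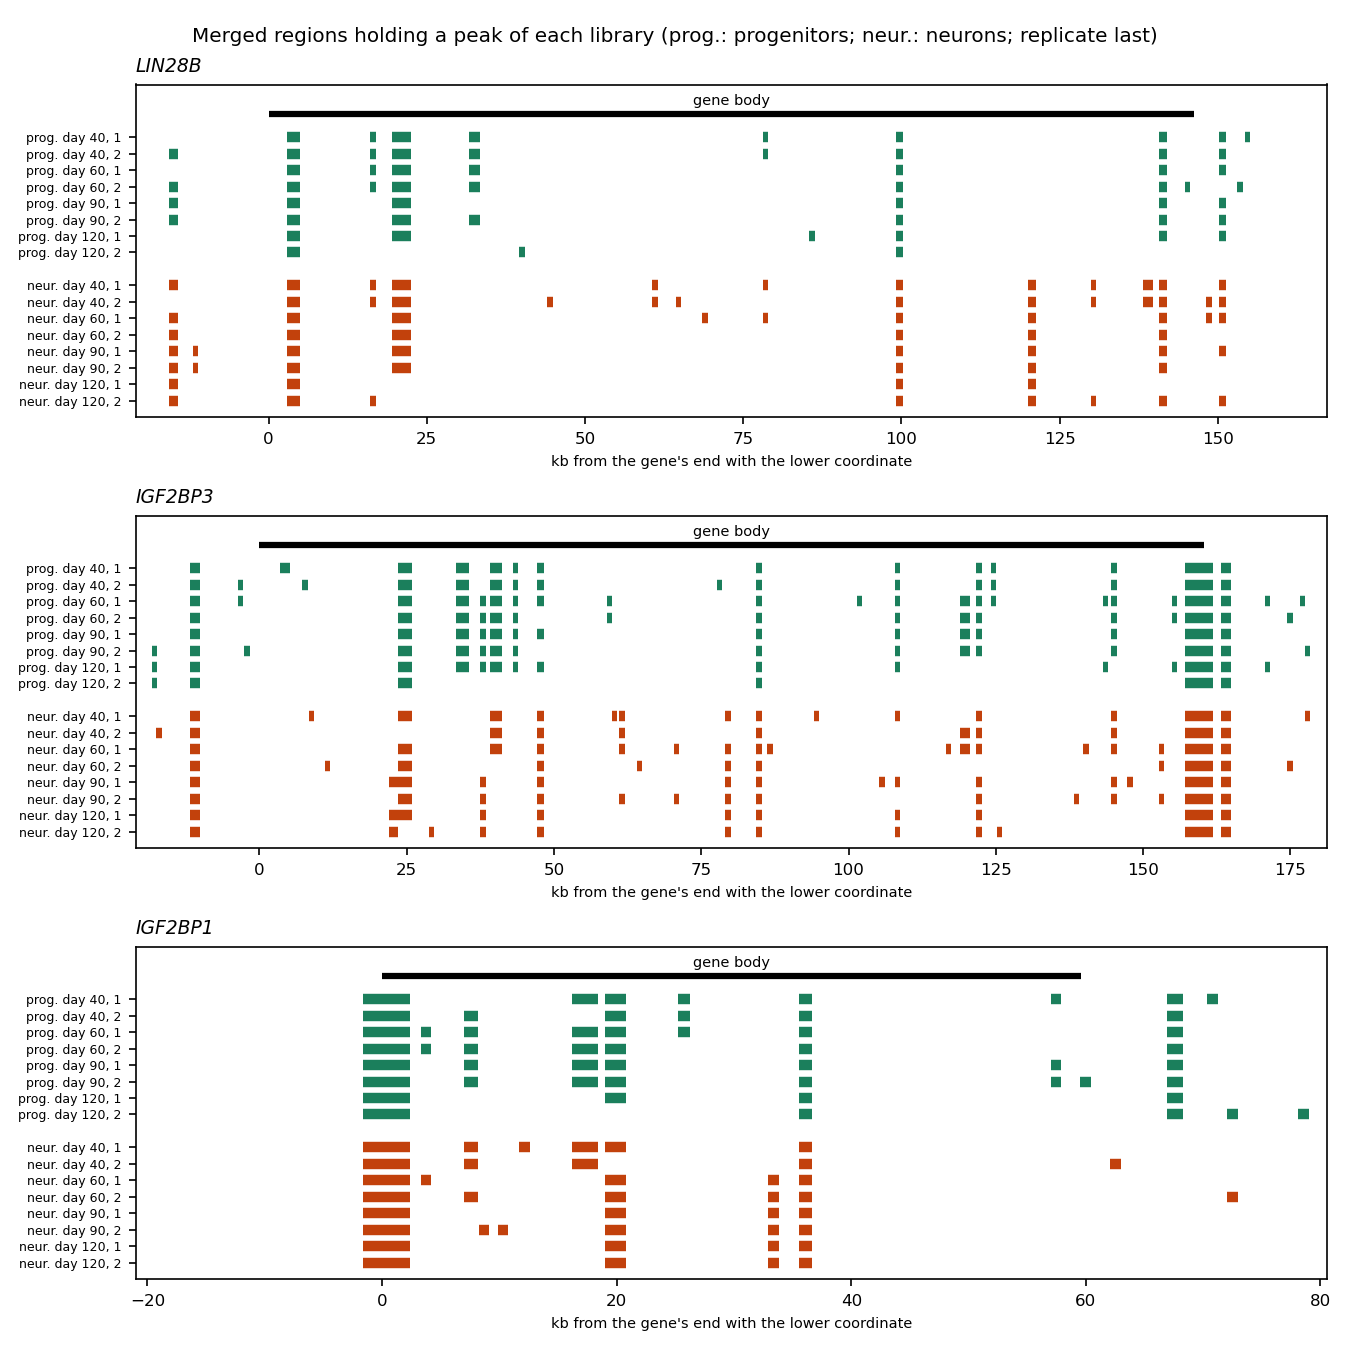
Merged regions in which each library had a peak, across LIN28B, IGF2BP3 and IGF2BP1, in kb from the gene's end with the lower coordinate; rows are libraries, progenitors (green) above neurons (orange), days 40 to 120 from top to bottom, and regions under 0.9 kb are drawn 0.9 kb wide. In LIN28B the region near 121 kb is in all 8 neuron rows and 0 progenitor rows, and in IGF2BP1 the region near 67.6 kb is in all 8 progenitor rows and 0 neuron rows.

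Other genes of the pathway were read from fixed lists. Of all genes 1.46% were called lower and 1.44% higher in late progenitors, 2.37% lower and 3.29% higher in late neurons, and 9.88% higher and 11.1% lower in progenitors than in neurons. Among 10 let-7 processing and decay genes 1 was lower in late progenitors, TARBP2, which encodes a partner of Dicer (-0.64 ± 0.15 SE, adjusted p = 0.0201), and 1 in late neurons, DIS3L2, the exonuclease that degrades uridylated pre-let-7 (-0.96 ± 0.20 SE, adjusted p = 0.00473). The medians of the 10 were -0.14 in progenitors and 0.05 in neurons, against -0.05 and 0.06 over all genes. With both populations averaged 3 of the 10 were lower, DIS3L2, DICER1 and TARBP2, where 4.16% of all genes were. Between populations 2 of the 10 were higher in progenitors, AGO1, an Argonaute protein (0.59 ± 0.12 SE, adjusted p = 0.000780), and DICER1, which cuts pre-let-7 (0.37 ± 0.10 SE, adjusted p = 0.0115). Among the 12 let-7 genes 10 could be tested, and 0 passed in either direction in either population. Chosen after their values were seen, the let-7 genes with an unadjusted p under 0.05 were MIRLET7C (0.65 ± 0.21 SE) and MIRLET7A2 (0.53 ± 0.19 SE) in progenitors and MIRLET7I (0.60 ± 0.22 SE) in neurons. Over the 10 genes the median late minus early difference was 0.18 in both populations. Several let-7 genes are neighbours and share most of their window.

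Of 13 other let-7 targets 1 was lower in both populations, PRTG, a cell surface protein of the early neural tube, with -1.05 ± 0.17 SE in progenitors (adjusted p = 0.00181) and -0.79 ± 0.17 SE in neurons (adjusted p = 0.00789). Of all genes 1.46% were lower in late progenitors and 2.37% in late neurons. The medians of the 13 were -0.14 in progenitors and 0.07 in neurons. With both populations averaged 2 of the 13 were lower, PRTG and HIC2, where 4.16% of all genes were. Between populations 3 of the 13 were higher in progenitors, where 9.88% of all genes were, among them the cyclin gene CCND1 (0.53 ± 0.12 SE, adjusted p = 0.00242). In the other direction 1 was lower, HIC2 (-0.36 ± 0.12 SE, adjusted p = 0.0384), where 11.1% of all genes were. Of the 4 genes of the IGF axis 0 passed in either population, and IGF2, a growth factor whose mRNA the IGF2BP proteins bind, passed as lower with both averaged (-0.49 ± 0.15 SE, adjusted p = 0.0467). Of 7 late progenitor factors 1 was higher in late progenitors, where the median of the 7 was -0.00598, and 5 were higher in late neurons, where it was 0.46. ZBTB20, a transcription factor of hippocampal and late cortical progenitors, was higher in both, by a log2 difference of 0.50 ± 0.12 SE in progenitors (adjusted p = 0.0264) and 0.75 ± 0.12 SE in neurons (adjusted p = 0.000785). NFIA, which promotes gliogenesis, passed in neurons with 0.46 ± 0.11 SE (adjusted p = 0.0106).

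Markers of other cells moved in part with these groups. Of 6 pluripotency markers, whose cells share LIN28A and LIN28B, 1 was lower in late progenitors, CRIPTO (-1.18 ± 0.32 SE, adjusted p = 0.0402), and 0 changed in neurons. Between populations DPPA4 (1.42 ± 0.24 SE) and L1TD1 (0.80 ± 0.16 SE) were higher in progenitors. The summed coverage of the 6 was 5.999 to 18.0 kb in late and 16.9 to 18.0 kb in early progenitors, and 7.75 to 13.4 kb in late and 9.404 to 15.0 kb in early neurons, with no marker at 0 in every library of a group. Of 9 progenitor markers 0 changed between late and early progenitors, and SLC1A3 and FABP7 were higher in late neurons. Of 10 neuron markers DCX was higher and RBFOX3 lower in late progenitors, and MAPT was higher and RBFOX3 lower in late neurons. Their sums were 37.7 to 127 kb in late and 77.3 to 123 kb in early progenitors. Of 7 mesenchyme markers 0 passed in progenitors, their sum was 5.29 to 22.4 kb in late and 17.7 to 19.9 kb in early progenitors, and COL3A1 was at 0 in all late progenitors. In neurons COL3A1 and DCN were higher and PDGFRB lower, with sums of 9.78 to 16.6 kb in late and 8.17 to 24.9 kb in early neurons. The part of these markers in the results above was not tested.

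The genes whose scaled coverage followed a member most closely over the 16 libraries were listed by Pearson's r, as a description; all share library, list length and culture. Between 18757 and 18760 genes were compared with each member. IGF2BP2 was the nearest to HMGA2 (r = 0.91), and HMGA2 came next to IGF2BP2 after KSR1 (r = 0.94). LIN28B was nearest to CADPS (r = 0.89) and ISL1 (r = 0.88), LIN28A to CPA5 (r = 0.91), TRIM71 to TBC1D9 (r = 0.87) and HMGA1 to PTTG1 (r = 0.85). IGF2BP3 was nearest to NET1 (r = 0.92). No other pair of members stood among each other's 3 nearest genes.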

How the data were processed

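The 16 ATAC-seq peak lists were analysed as the authors deposited them, 1 broad peak list per library and none pooled. The submitters' processing notes name Trim Galore 0.5.0, BWA 0.7.17, Picard, SAMtools 1.9, MACS2 2.1.2 and hg38. For the settings, any shift of reads for Tn5 and any removal of duplicates, nothing is given in the sources used here. Each list holds the authors' deposited score, fold enrichment (a ratio of signal), -log10 p-value and -log10 q-value per peak. These are each peak's own values, of which the deposited -log10 q served as a threshold in an alternative and the deposited -log10 p ranked the peaks of a list when lists were brought to equal length. The lowest -log10 q of a list was 1.00 to 1.01. No counts were in the lists, so read depth is unknown, no intervals are given, and the number of regions called limits the precision: 68364 to 138554 peaks per library. Peaks off chromosomes 1 to 22 and X, 95 to 387 per list, were left out.

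For 19970 protein-coding genes and 12 let-7 genes of RefSeq (GRCh38.p14), bases under peaks were summed over the gene body plus 20 kb on either side. A gene was tested if 2 or more libraries had 500 or more bases under peaks there. The bases plus a pseudocount of 500 were divided by the bases covered by the library's list, taken to log2 and fitted with limma 3.58.1 in R 4.3.3 on the 8 groups of population and day, with Benjamini-Hochberg adjustment over all genes tested and a threshold of 0.05. A log2 difference on this scale understates changes of loci with little coverage. Overlapping peaks of all libraries were merged into regions, a library holding a region if a peak overlapped it by at least 1 base, and regions held by 2 to 14 libraries were tested by two-sided Fisher's exact test, adjusted over all. Python 3.11.15, NumPy 2.4.6, pandas 2.3.3 and SciPy 1.17.1 were used. The fits were run on simulated data with independent noise. These held no effect of list length or peak threshold, so they cannot show how the calls depend on either. Alternatives were another pseudocount, flank, scaling, peak threshold, overlap and measure, a replicate block and leaving out each library.

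All 8 genes are named. Of the other lists, genes past the threshold are named, at most 4 per list and comparison, of the genes most alike at most 3 per member, and of the regions those past a test or present in all libraries of one side and none of the other, at most 5 per member. The genes most alike IGF2BP1 are not reported here. Regions lost after day 90 were chosen after the peaks had been seen. The members and lists were chosen with earlier results of these data known.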

Additional observations from a re-analysis of the deposited data

Results flagged for a closer look

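Among 64 groups of 4 libraries, formed from the covered length and the scaled coverage of the 8 genes, 1 had a library far from the others. The HMGA1 window held 1.22 kb under peaks in progenitor day 120 replicate 2, against 4.41 to 5.02 kb in the other late progenitors, a gap of 0.839 of the group's range where Dixon's critical value for 4 samples is 0.829. Chance marks about 1 in 20 such groups. This library had the shortest peak list, and scaled to list length its HMGA1 value was 3.32 covered bases per 100 kb, against 4.47 to 5.63 in the other 3.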

How the results depend on the processing

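The number of the 8 genes called between late and early libraries was 4 in progenitors, 2 in neurons and 4 with both averaged. In progenitors it was 0 without scaling, 1 with lists of equal length, 2 with the number of peaks and 0 by the exact permutation test on unscaled covered bases, whose smallest p for 4 against 4 libraries is 0.0286. In neurons it was 1 with a pseudocount of 100, 0 without scaling, 0 with lists of equal length, 1 with the number of peaks and 0 by the exact permutation test. With both averaged it was 2 without scaling and 1 with lists of equal length. The genes behind a count could change. Over 8 alternative settings the HMGA2 call in neurons was lost in 5. Some genes not called passed by limma in at least 1 of these settings. The lowest adjusted p was 0.0286 for LIN28B in neurons, 0.0374 for IGF2BP1 in progenitors and 0.0168 for IGF2BP1 with both averaged. Leaving out 1 library gave 1 to 5 in progenitors, 1 to 3 in neurons and 3 to 5 with both averaged. In the steps added after seeing the data, day 60 minus day 40, day 90 minus day 60 and day 120 minus day 90 gave 0, 0 and 1 in progenitors and 0, 0 and 0 in neurons. Day 120 minus the mean of the earlier days, also added after seeing the data, gave 4 in progenitors and 2 in neurons. For progenitors minus neurons, 1 gene was called, and 0 with a pseudocount of 100, a flank of 5 kb, no scaling, the number of peaks or the exact permutation test, 2 with lists of equal length and 0 to 2 without 1 library. The difference between populations stayed at 0 calls without any 1 library. Apart from the settings' own construction the cause was not tested.

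Regions that separated progenitors from neurons numbered 5, and 0 when peaks had to cover 50% of a region, 1 with lists of equal length and 5 to 8 without 1 library; late against early gave 0 throughout. Regions of early or of late libraries alone numbered 2 in progenitors, and 0 with 50% coverage, 0 with a -log10 q of at least 2, 1 with equal lists and 2 to 5 without 1 library. In neurons they numbered 1, and 1 to 5 without 1 library. Splits chosen after seeing the data gave 15 after day 90 in progenitors, and 10 after day 40 (9 lost and 1 gained) and 7 after day 90 (6 lost and 1 gained) in neurons. The split after day 90 gave 10 in progenitors and 2 in neurons with 50% coverage, 12 and 3 with a -log10 q of at least 2, and 1 and 2 with equal lists.

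Late minus early differences that changed sign were none of those called. HMGA1 in progenitors was 0.0116 with equal lists and -0.17 to 0.0396 without 1 library. HMGA1 in neurons was -0.00403 with a flank of 5 kb, -0.19 without scaling, -0.0365 with the number of peaks and -0.24 to 0.39 without 1 library. HMGA1 with both averaged was -0.0266 with a pseudocount of 100, -0.0202 with a flank of 5 kb, -0.18 without scaling, -0.0420 with the number of peaks and -0.15 to 0.16 without 1 library. IGF2BP3 in neurons was 0.0590 with a flank of 5 kb, 0.0834 with a -log10 q of at least 2, 0.0395 with the number of peaks and -0.0900 to 0.0380 without 1 library. LIN28A in neurons was -0.41 to 0.0382 without 1 library. With equal lists the progenitors minus neurons difference was -0.44 for IGF2BP2 (adjusted p = 0.0313) and -0.59 for TRIM71.

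Over 28 pairs of groups, same-numbered libraries had a median correlation of 0.0089 (-0.12 to 0.25). Most of these pairs span different days, and the 2 populations of the same day were not read apart. The median therefore cannot show whether the replicate numbers pair samples of the same day. With the replicate block the calls stayed at 4 in progenitors, 2 in neurons, 4 with both averaged and 1 between populations. Read depth is unknown, so regions missing from the shortest list may lie below its threshold.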
